A study of Homo sapiens with 6 samples.

Results

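ACTN4, MYH9, BCAR1 and MARCKS, which encode proteins of the actin cytoskeleton and of focal adhesions, were examined in Rh30 cells expressing PANX1 or GFP. As deposited, ACTN4, MYH9 and BCAR1 had higher FPKM in all 3 PANX1 libraries than in all 3 GFP libraries, with group means differing 2.02-fold, 1.64-fold and 3.17-fold, whereas MARCKS had lower FPKM in PANX1 cells, with a ratio of 0.588. Scaling the libraries to the median of the table, which lowers nearly all entries by construction, put ACTN4 and MYH9 below the GFP level, as described further on. The 4 genes were picked by name from the 1273 entries of the deposited table, and each has 1 entry of its own there. FPKM is the number of sequenced fragments scaled to transcript length and to the total of mapped fragments. Rh30 is an established human cell line from an alveolar rhabdomyosarcoma, a tumor of the skeletal muscle lineage. Stable Rh30 cells carried the CymR repressor and a lentiviral cumate switch, selected with geneticin and puromycin, that held either PANX1 or no insert (GFP control). The vector also expresses GFP constitutively, so both groups produce GFP, and both received 30 µg/mL cumate for 48 h before RNA was extracted from 3 cultures of each. PANX1 is driven by an artificial inducible promoter, so its level is not that of an endogenous response. In replicate order, PANX1 itself stood at 37.8, 35.3 and 28.1 FPKM in GFP libraries and at 124, 184 and 123 FPKM in PANX1 libraries. The groups did not overlap, and an exact permutation test (two-sided) gave p = 0.1, the lowest value possible with 3 libraries a group. PANX1 is an entry of the same table, in which 93.9% of entries had no overlap, so this is a check of the labels and no independent test.

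The table holds as many entries as the study called changed between these same libraries, so the PANX1 and GFP values of the 4 genes are what put them in it. Their differences are therefore described without a test. No entry of the table had a log2 ratio of mean FPKM between -0.625 and 0.63. No counting interval was computed, since FPKM are not counts and the read totals in the study's methods, which are given without replicate numbers, were not used here. The size of the differences varied among the PANX1 libraries throughout the table, where the median log2 ratio to the GFP mean was 0.77 for PANX1 replicate 1, 0.61 for replicate 2 and 1.87 for replicate 3. As these are bulk samples, a change in all cells and a change in only a part of the cells cannot be told apart.

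Actin filaments give a cell its shape and its means of pulling and crawling. Filaments are bundled by crosslinkers such as the alpha-actinins and are pulled past each other by non-muscle myosin II, and focal adhesions, built on integrins and on adaptor proteins, anchor them to the extracellular matrix. In the skeletal muscle lineage the same machinery serves myoblast migration, spreading and fusion. ACTN4 encodes alpha-actinin-4, a non-muscle actin crosslinker. MYH9 encodes the heavy chain of non-muscle myosin IIA, the motor of contractile stress fibers. BCAR1 encodes p130Cas, an adaptor that is phosphorylated by Src family kinases at focal adhesions and recruits Crk. MARCKS encodes a substrate of protein kinase C that binds the inner face of the plasma membrane, actin filaments and calmodulin.

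ACTN4 (XLOC_010838, chromosome 19 of hg19, 39138267 to 39235114, plus strand) measured 22.6, 25.8 and 26.3 FPKM in the GFP libraries, in replicate order, and 40.0, 40.0 and 70.7 FPKM in the PANX1 libraries. The GFP libraries lay close together, PANX1 replicates 1 and 2 were nearly equal, and PANX1 replicate 3 stood well above them. Its mean FPKM was 24.9 ± 2.03 (SD, n = 3) for GFP and 50.2 ± 17.7 (SD, n = 3) for PANX1 libraries, a log2 ratio of 1.01, and without PANX1 replicate 3 the log2 ratio was 0.68. The locus of this entry runs past the annotated end of ACTN4 at 39222229 and over part of CAPN12, a calpain gene on the opposite strand that shares 1403 bases with ACTN4. The lncRNA ENSG00000267375 also lies in it on the opposite strand. Past the end of ACTN4 it holds the lncRNA ENSG00000267892 (39228924 to 39230503) on the same strand. The library kit does not mark strand, so reads from the shared stretches cannot be told apart.

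MYH9 (XLOC_014795, chromosome 22, 36677323 to 36784063, minus strand) had an FPKM of 65.6, 54.6 and 50.4 in the GFP libraries and of 79.5, 65.8 and 134 in the PANX1 libraries. PANX1 replicate 2 was barely above GFP replicate 1, so the absence of overlap rested on a small margin. The locus also holds ENSG00000287269, a lncRNA on the opposite strand, and RN7SL349P, which covers 258 bases on the same strand. Reads from any stretch shared with MYH9 cannot be told apart, but these overlaps are with the span of the gene and not with its exons alone. The mean FPKM was 56.9 ± 7.87 (SD, n = 3) for GFP and 93.2 ± 36.3 (SD, n = 3) for PANX1 libraries, a log2 ratio of 0.71. Without PANX1 replicate 3 the log2 ratio was 0.35. Leaving out that library also lowered the median log2 ratio of the whole table, from 1.23 to 0.70.

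BCAR1 (XLOC_008680, chromosome 16, 75262928 to 75301951, minus strand) was the least abundant of the 4 genes. It had an FPKM of 1.53, 1.66 and 1.32 in the GFP libraries and of 2.80, 2.37 and 9.10 in the PANX1 libraries. PANX1 replicate 3 was 3.52 times the mean of the other two PANX1 libraries, compared with 1.77 times for ACTN4 and 1.85 times for MYH9. The mean FPKM was 1.50 ± 0.175 (SD, n = 3) for GFP and 4.76 ± 3.77 (SD, n = 3) for PANX1 libraries, a log2 ratio of 1.66 that dropped to 0.78 without PANX1 replicate 3. The unclassified transcript ENSG00000280152 covers 4084 bases of the gene on the same strand.

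MARCKS (XLOC_018454, chromosome 6, 114178527 to 114184652, plus strand) had an FPKM of 56.1, 71.5 and 63.3 in the GFP libraries and of 55.7, 39.3 and 17.3 in the PANX1 libraries. PANX1 replicate 1 was just below GFP replicate 1, PANX1 replicate 2 lay lower, and PANX1 replicate 3 was the lowest by far. Its mean FPKM was 63.6 ± 7.70 (SD, n = 3) for GFP and 37.4 ± 19.3 (SD, n = 3) for PANX1 libraries, a log2 ratio of -0.77, or -0.42 without PANX1 replicate 3. In all 4 genes, then, the most extreme of the PANX1 libraries was replicate 3. The groups were free of overlap in 4 of the 4 genes and in 93.9% of the whole table, where 82% of entries were higher and 11.9% lower in this way.

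**Figure D1:**
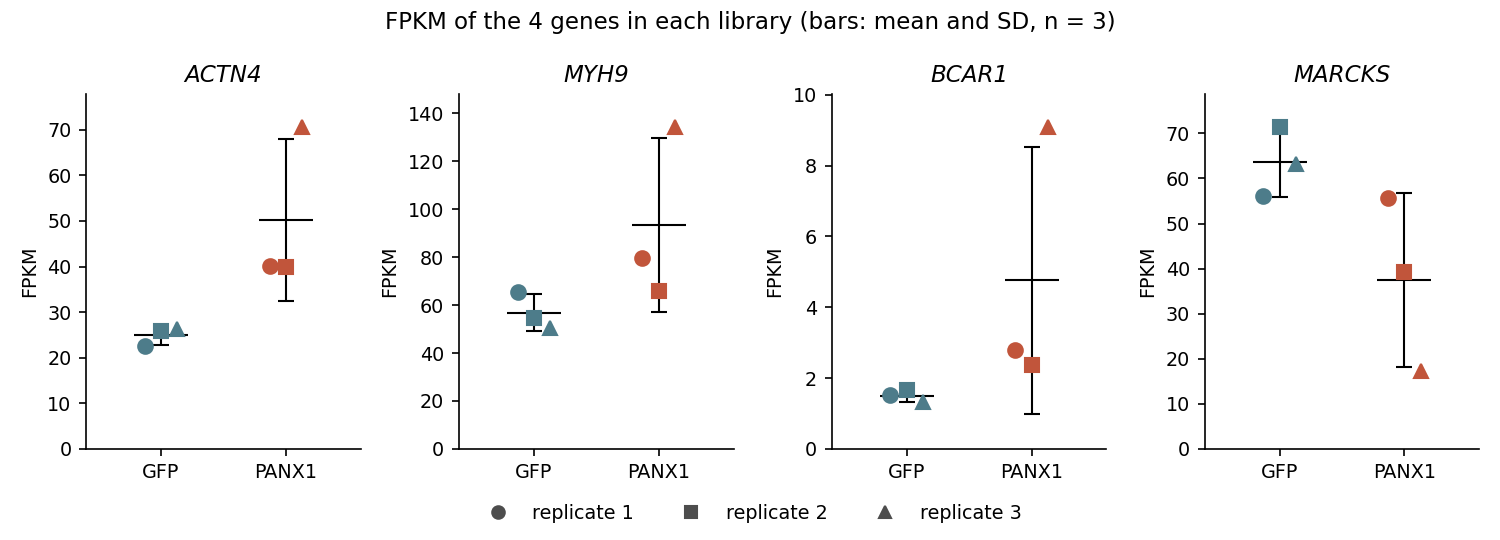
FPKM (vertical axis, starting at 0) of ACTN4, MYH9, BCAR1 and MARCKS in the 3 GFP and 3 PANX1 libraries, with a symbol for each replicate number and bars for the mean and SD (n = 3). PANX1 replicate 3 is the highest PANX1 library for ACTN4 (70.7), MYH9 (134) and BCAR1 (9.10) and the lowest for MARCKS (17.3).

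The order of the 4 genes by FPKM, a scale that allows levels of different genes to be compared per length, was not the same in the 2 groups. In GFP cells the mean FPKM ran from MARCKS (63.6) and MYH9 (56.9) to ACTN4 (24.9) and BCAR1 (1.50), and MARCKS and MYH9 did not differ beyond their spread, as MYH9 was above MARCKS in replicate 1 and below it in replicates 2 and 3. In PANX1 cells it ran from MYH9 (93.2) through ACTN4 (50.2) and MARCKS (37.4) to BCAR1 (4.76). There ACTN4 and MARCKS were not separated, since MARCKS was above ACTN4 in replicate 1, about level with it in replicate 2 and far below it in replicate 3. Among all entries of the table, the mean GFP level of MARCKS, MYH9, ACTN4 and BCAR1 stood at the percentiles 92.4, 91.8, 81.9 and 21.8, and their log2 ratios at the percentiles 7.46, 14.1, 28.8 and 79.0.

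The ratio of 2 genes within a library does not depend on how libraries are scaled. The pairs given here were chosen after the FPKM had been seen. MARCKS over ACTN4 was 2.48, 2.77 and 2.40 in GFP replicates 1, 2 and 3 and 1.39, 0.984 and 0.245 in the PANX1 replicates. The mean ratio was 2.55 ± 0.191 (SD, n = 3) for GFP and 0.873 ± 0.581 (SD, n = 3) for PANX1 libraries, without overlap. The ratio is free of library scaling but not of GC content, which was 43.8% for MARCKS and 58.6% for ACTN4, and after a correction for GC content the log2 differences of the pair were -0.57 and 0.36, against -0.77 and 1.01 as deposited. MYH9 over ACTN4 was 2.31 ± 0.524 (SD, n = 3) for GFP and 1.84 ± 0.177 (SD, n = 3) for PANX1 libraries, and its groups overlapped. ACTN1, which encodes the other non-muscle alpha-actinin, was also in the table, and ACTN4 over ACTN1 was 0.368, 0.399 and 0.391 in GFP and 0.424, 0.479 and 0.510 in PANX1 cells. This ratio was slightly higher in each of the PANX1 libraries, but after the correction for GC content the log2 differences of the pair were close, 0.36 for ACTN4 and 0.30 for ACTN1, against 1.01 and 0.71 as deposited. BCAR1 over ZYX, the gene for the focal adhesion protein zyxin, was 0.112 ± 0.0112 (SD, n = 3) for GFP and 0.105 ± 0.00867 (SD, n = 3) for PANX1 libraries, and the groups overlapped even though both genes were at several times their GFP level in PANX1 replicate 3.

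**Figure D2:**
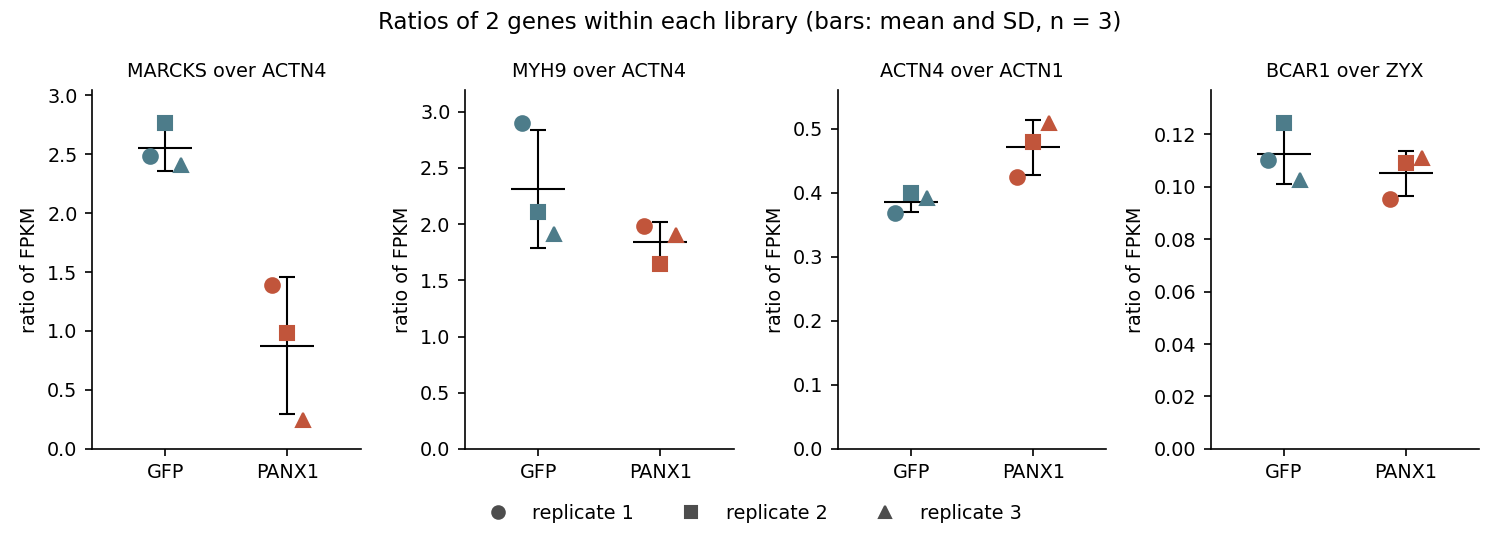
Ratio of the FPKM of 2 genes within each library (vertical axis, no unit, starting at 0) in the GFP and PANX1 groups, with a symbol for each replicate number and bars for the mean and SD (n = 3). MARCKS over ACTN4 is between 2.40 and 2.77 in GFP and between 0.245 and 1.39 in PANX1 cells, ACTN4 over ACTN1 is slightly higher in PANX1 cells, and the other pairs overlap.

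The sequence just before the transcription start is shown for each gene because base composition, which differs among the 4 transcripts as described further on, differs there too, with MARCKS lowest in both. Each run is the 250 bases before the most upstream start in RefSeq on GRCh38.p14, written 5′ to 3′ on the strand of the gene. ACTN4 has 2 annotated starts, BCAR1 has 5, and MYH9 and MARCKS have 1 each, and the start used in Rh30 cells was not determined. Capitals mark matches on either strand to GGGCGG (the GC box bound by Sp1 family factors), CCAAT (bound by NF-Y) or GGAATG (the core bound by TEAD factors).
ACTN4 chr19:38647399-38647648, plus strand: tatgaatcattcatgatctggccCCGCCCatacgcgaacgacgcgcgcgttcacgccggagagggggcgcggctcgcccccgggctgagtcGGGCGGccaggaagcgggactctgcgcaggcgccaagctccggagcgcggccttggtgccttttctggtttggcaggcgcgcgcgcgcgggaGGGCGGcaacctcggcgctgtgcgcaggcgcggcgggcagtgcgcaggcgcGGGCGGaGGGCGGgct
MYH9 chr22:36387968-36388217, minus strand: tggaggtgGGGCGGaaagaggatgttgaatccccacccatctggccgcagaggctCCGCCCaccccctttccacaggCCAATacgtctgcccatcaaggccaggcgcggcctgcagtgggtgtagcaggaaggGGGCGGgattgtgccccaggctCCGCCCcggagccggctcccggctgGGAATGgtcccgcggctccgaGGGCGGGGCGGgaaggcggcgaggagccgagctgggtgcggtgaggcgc
BCAR1 chr16:75268008-75268257, minus strand: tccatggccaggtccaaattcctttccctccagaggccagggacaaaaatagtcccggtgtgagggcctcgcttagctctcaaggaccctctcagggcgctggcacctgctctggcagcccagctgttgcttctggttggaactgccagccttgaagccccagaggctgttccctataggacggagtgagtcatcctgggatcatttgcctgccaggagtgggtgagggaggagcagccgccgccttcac
MARCKS chr6:113857095-113857344, plus strand: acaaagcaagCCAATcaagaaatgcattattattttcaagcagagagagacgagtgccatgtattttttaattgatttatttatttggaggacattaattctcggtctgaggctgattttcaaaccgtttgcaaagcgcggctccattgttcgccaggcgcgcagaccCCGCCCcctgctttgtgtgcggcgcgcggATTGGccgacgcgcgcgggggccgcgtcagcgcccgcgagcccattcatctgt

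The GC content of these runs was 74.4% for ACTN4, 71.6% for MYH9, 60.4% for BCAR1 and 52.8% for MARCKS, against a median of 57.6% over 27303 such windows, 1 per gene. GGGCGG, with overlapping matches counted apart, occurred 5 times in ACTN4, 6 times in MYH9, 1 time in MARCKS and 0 times in BCAR1, and at least once in 42.2% of all windows. CCAAT occurred 2 times in MARCKS and 1 time in MYH9 (33% of all windows), and GGAATG 1 time in MYH9 (12% of all windows). The SRF CArG box, a motif of many actin cytoskeleton genes, had no match in any of the 4 windows and a match in 1.15% of all windows.

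The transcripts differed in composition too. In the longest coding transcript of each gene (GENCODE, same build as the FPKM), GC content was 58.6% for ACTN4 (21 exons, 4990 bases), 58.3% for MYH9 (42 exons, 7536 bases), 65.5% for BCAR1 (7 exons, 4085 bases) and 43.8% for MARCKS (2 exons, 4292 bases), against a median of 49.1% over protein-coding genes. MARCKS was split within its own transcript. Its coding sequence of 999 bases has a GC content of 74.5%, the highest of the 4 genes, and its 3′ UTR of 2895 bases has 32.3%, the lowest. The 3′ UTRs of ACTN4, MYH9 and BCAR1 have a GC content of 55.9%, 53.4% and 61.7%.

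To set the 4 genes among others of the same machinery, 224 genes were listed by role, and 35 of these, the 4 included, had their own entry in the table. The remaining genes of the lists were not analysed here, and they include all 6 actin isoforms, ACTB and ACTG1 among them. Of the 31 other entries, 29 had a higher and 2 a lower mean FPKM in PANX1 cells as deposited, and none overlapped between the groups, against 93.9% of the table without overlap. Scaling by median of ratios (described further on), which centers the table near 0 by construction, gave a split of 16 higher to 15 lower that bears on no direction. Their median log2 ratio was 1.20, against 1.23 over the whole table, so their size of difference was that of the table at large. With limma on log2(FPKM + 1), a scale that understates changes of low values, and Benjamini-Hochberg adjustment over the table, 11 of the 31 were called higher and 0 lower, against 33.5% higher, 0.707% lower and 34.2% in either direction over the table. At an unadjusted p under 0.05, limma had 18 of the 31 higher and 0 lower, against 58.4% and 3.38% of the table, so neither count stood apart from the table. Limma called 0 of the 31 in either direction after median-of-ratios scaling, after a correction for GC content or without a trend in eBayes (0, 9 and 0 entries over the table). With a block by culture numbers it called 27 higher and 1 lower (1005 and 140 over the table). The counts by role given next are from the FPKM as deposited unless another setting is named. These entries were selected by the study for a difference between the same libraries, so the counts are no second test. They also moved widely with single libraries, as did those of the table. Without GFP replicates 1, 2 and 3 in turn, 0 of the 31 were called higher, against 8, 14 and 51 of the 1273 entries. The counts were 5 without PANX1 replicate 1 (300 over the table) and 19 without PANX1 replicate 2 (716). Without PANX1 replicate 3 they were 25 higher and 2 lower (994 and 146).

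Crosslinkers and bundlers of actin made up the largest group, with ACTN4 and 11 others among 33 genes listed. As deposited, 12 of the 12 were higher in PANX1 cells and their log2 ratios had a median of 1.25. Limma called 7 of the 11 others higher (33.5% of the table). Without PANX1 replicates 1, 2 and 3 in turn, 4, 9 and 10 of the 11 were called higher, against 300, 716 and 994 of the 1273 entries. Without any 1 of the GFP libraries, 0 of the 11 were called (8, 14 and 51 over the table). Median-of-ratios scaling left 6 of the 12 above the GFP level and the GC correction 11 of the 12, with 0 of the 11 others called under either. ACTN1 had the smallest log2 ratio of the group, 0.71, from 64.5 ± 2.96 FPKM (SD, n = 3) for GFP to 105 ± 29.2 (SD, n = 3) for PANX1 libraries, and was thus more abundant than ACTN4 in both groups. FLNA, the gene for filamin A, named here after its values were seen, had 24.6, 20.6 and 18.2 FPKM in GFP and 47.9, 36.7 and 133 in PANX1 cells. It was among the 7 called higher.

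Focal adhesion adaptors and kinases came next, with BCAR1 and 7 others among 51 genes. All 8 were higher as deposited, with a median log2 ratio of 1.35, and limma called 3 of the 7 others higher (33.5% of the table). Without PANX1 replicates 1, 2 and 3 in turn, 1, 6 and 7 of the 7 were called higher, against 300, 716 and 994 of the 1273 entries. The block by culture numbers called 7 of the 7 (1005 over the table). Without any 1 of the GFP libraries, 0 of the 7 were called (8, 14 and 51 over the table). Both median-of-ratios scaling and the GC correction left 7 of the 8 above the GFP level, with 0 of the 7 others called under either. CSK, the kinase that switches off Src family kinases, had the largest log2 ratio, 1.78, with 5.59, 6.22 and 4.64 FPKM in GFP and 13.1, 9.16 and 34.0 in PANX1 cells. The smallest was 0.94 for GIT1, a scaffold that binds paxillin, with 16.8 ± 1.85 FPKM (SD, n = 3) for GFP and 32.3 ± 13.6 (SD, n = 3) for PANX1 libraries. CSK was called higher by limma and GIT1 was not. ZYX, also named after its values were seen, had 13.8, 13.4 and 12.8 FPKM in GFP and 29.5, 21.7 and 82.0 in PANX1 cells, and was called higher. In ZYX and CSK, as in BCAR1, PANX1 replicate 3 was far above the other PANX1 libraries.

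In the myosin group, MYH9 and 4 others had an entry among 22 genes, and limma called 0 of the 4 others in either direction, against 34.2% of the table. That count changed with the processing, as ROCK2 was called lower without PANX1 replicate 3, and MYL6B, a myosin light chain, higher without PANX1 replicate 2, without PANX1 replicate 3 and with a block by title numbers. Of the 1273 entries, 716 were called higher and 23 lower without PANX1 replicate 2, 994 and 146 without PANX1 replicate 3, and 581 and 33 with that block. A block by culture numbers, in which PANX1 replicate 3 and GFP replicate 1 have no partner and so drop out of the comparison, called ROCK2 lower, MYL6B higher and PPP1R12C, a subunit of myosin phosphatase, higher. Over the table it called 1005 entries higher and 140 lower. ROCK2, a kinase that activates non-muscle myosin II through its light chain, had lower values in PANX1 cells, with 24.6, 21.5 and 19.1 FPKM in GFP and 15.4, 14.9 and 7.41 in PANX1 cells. Its log2 ratio of -0.79 was the lowest of the 35 entries, and the groups did not overlap. ROCK2 over MYH9 within a library was 0.383 ± 0.0102 (SD, n = 3) for GFP and 0.158 ± 0.0908 (SD, n = 3) for PANX1 libraries, again without overlap. The pair differs in GC content, 40.1% for ROCK2 and 58.3% for MYH9, and the GC-corrected log2 differences were -0.26 and 0.087. CDC42BPG, a related myosin-regulating kinase, had the largest log2 ratio of the group, 1.46, at 0.132 ± 0.0388 FPKM (SD, n = 3) for GFP and 0.363 ± 0.245 (SD, n = 3) for PANX1 libraries. Counting MYH9, 4 of the 5 were higher as deposited and 1 of the 5 after median-of-ratios scaling, whose counts follow from the centering of the table. After the GC correction, made on log2(FPKM + 1), 2 of the 5 were higher. The pseudocount and the correction both enter that count, and the FPKM of CDC42BPG, at -0.58 there, all lie below the pseudocount.

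Integrins had 4 entries among 22 genes, and limma called 0 of the 4, against 34.2% of the table in either direction. Without PANX1 replicate 3 it called ITGAV lower and ITGA3 and ITGA7 higher (994 higher and 146 lower of the 1273 entries). The block by culture numbers, which also drops that library, called ITGA3 and ITGA7 higher (1005 higher and 140 lower over the table). ITGB4 was called higher with pseudocounts of 0.1 and 0.01 and without PANX1 replicate 2, where 500, 516 and 716 entries of the table were called higher. ITGAV, the alpha V chain of receptors for vitronectin and fibronectin, had 34.1, 27.2 and 29.0 FPKM in GFP and 19.4, 26.5 and 10.3 in PANX1 cells, a log2 ratio of -0.68. PANX1 replicate 2 was just below GFP replicate 2, so the groups were parted by a narrow margin, as for MARCKS. ITGA7, a laminin receptor chain typical of skeletal muscle, had 24.5, 26.3 and 31.0 FPKM in GFP and 35.4, 43.7 and 56.2 in PANX1 cells, a log2 ratio of 0.72. ITGA3, another laminin receptor chain, had 2.28 ± 0.667 FPKM (SD, n = 3) for GFP and 5.19 ± 1.03 (SD, n = 3) for PANX1 libraries, a log2 ratio of 1.19 that was 1.05 without PANX1 replicate 3. ITGB4 was near the bottom of the scale, with 0.0748 ± 0.0266 FPKM (SD, n = 3) for GFP and 0.352 ± 0.333 (SD, n = 3) for PANX1 libraries. As deposited 3 of the 4 integrins were higher, with 2 of the 4 after median-of-ratios scaling. After the GC correction, which was made on log2(FPKM + 1), 1 of the 4 was higher. That count carries both the pseudocount and the correction, and the FPKM of ITGB4, at -0.57 there, all lie below the pseudocount.

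Genes that build or take apart filaments were few in the table. FHOD1 and INF2, both formins, were the 2 entries among 39 nucleation and polymerization genes, with log2 ratios of 1.04 and 1.20. Both were below 0 after median-of-ratios scaling and above 0 after the GC correction. Limma called neither (34.2% of the table in either direction). Both were called higher without PANX1 replicate 3 and with the block by culture numbers (994 and 1005 of the 1273 entries), and INF2 without PANX1 replicate 2 (716). FHOD1 had 8.69 ± 1.12 FPKM (SD, n = 3) for GFP and 17.9 ± 8.24 (SD, n = 3) for PANX1 libraries, and INF2 5.73 ± 0.593 (SD, n = 3) and 13.2 ± 8.23 (SD, n = 3). Turnover and capping genes had 3 entries among 30, of which 3 were higher as deposited and after the GC correction and 1 of the 3, TWF2, after median-of-ratios scaling. TWF2, an actin monomer-binding twinfilin, had 4.24, 5.34 and 6.34 FPKM in GFP and 11.9, 9.00 and 31.5 in PANX1 cells, and was the 1 of the 3 called higher (33.5% of the table). Without PANX1 replicate 3, and with the block by culture numbers, limma called 3 of the 3 higher, against 994 and 1005 of the 1273 entries. Without PANX1 replicate 1 it called 0 of the 3 (300 over the table). LIMK1, the kinase that inactivates cofilin, had 13.7 ± 1.48 FPKM (SD, n = 3) for GFP and 27.3 ± 11.4 (SD, n = 3) for PANX1 libraries, and FLII, a gelsolin family member, 56.3 ± 1.37 (SD, n = 3) and 94.0 ± 24.3 (SD, n = 3). MARCKS was the 1 entry among 21 genes that link the membrane to actin.

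**Figure D3:**
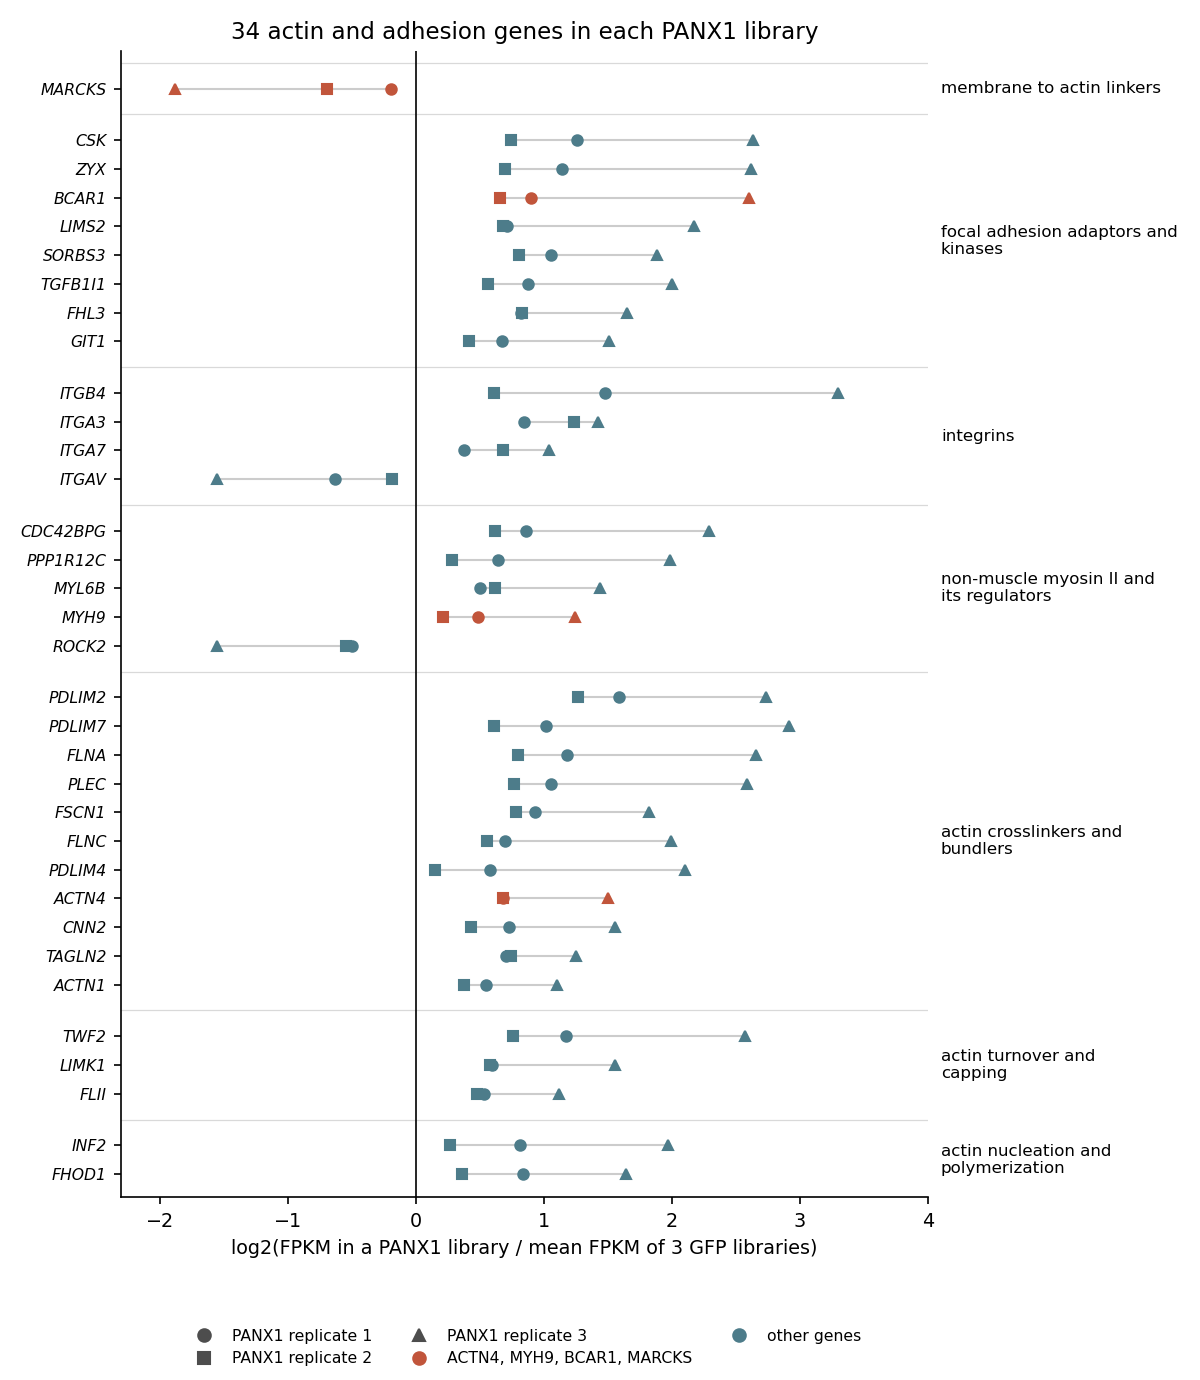
Log2 ratio of the FPKM in each PANX1 library to the mean FPKM of the 3 GFP libraries (horizontal axis) for 34 of the 35 actin and adhesion genes, grouped by role, with a symbol for each PANX1 replicate and a line from the lowest to the highest of the 3. All points of MARCKS, ROCK2 and ITGAV lie below 0, all points of the other genes lie above 0, and replicate 3 is the point farthest from 0 in each of the 34.

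PANX1 replicate 3 was the highest of the PANX1 libraries in 32 of the 32 higher entries and the lowest in 3 of the 3 lower ones, compared with 1081 of 1108 and 158 of 165 over the table. The median log2 ratio of the 31 other entries to the GFP mean was 0.82, 0.62 and 1.97 in PANX1 replicates 1, 2 and 3. GC content moved with these differences. The 3 lower entries had the 3 lowest GC contents of the 35, 38.3% for ITGAV, 40.1% for ROCK2 and 43.8% for MARCKS, and the 32 higher entries lay between 55.2% and 67.5%. Across the 35 entries, which share the same 6 libraries, the log2 ratio of PANX1 replicate 3 to the mean of replicates 1 and 2 followed GC content with a rank correlation (Spearman) of 0.73, and with one of 0.66 across 1154 entries of the table. Each library's slope on GC content was then subtracted from log2(FPKM + 1), a step that also removes any true difference that follows GC content. The slopes were fitted over the entries of this selected table, so they are not known to be free of the selection. They were taken relative to a GC content of 49.1%, against a table median of 61.0%, and the table median log2 ratio was 0.18 after the correction. The log2 difference was then 0.36 for ACTN4, 0.087 for MYH9, 0.027 for BCAR1 and -0.57 for MARCKS. For BCAR1, with its low FPKM, a pseudocount of 1 on the group means gave 1.20 without the correction. The corrected values are differences of mean log2 values and not log2 ratios of mean FPKM, so the averaging differs too. The part of GC content in the differences was not tested.

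**Figure D4:**
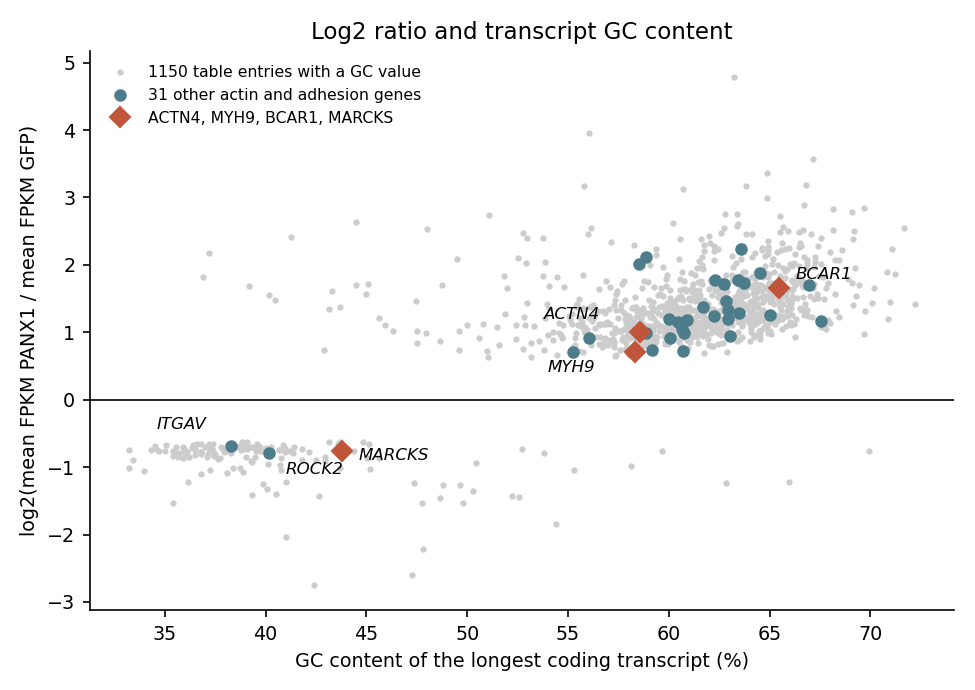
Log2 ratio of mean FPKM in PANX1 over GFP cells (vertical axis) against GC content of the longest coding transcript in percent (horizontal axis), for the 4 genes (diamonds), the 31 other actin and adhesion genes (circles) and 1150 table entries with a GC value and a finite ratio (gray). MARCKS, ROCK2 and ITGAV sit at a GC content of 43.8% or less and below 0, the other 32 genes at 55.2% or more and above 0, and the table has no entry between -0.625 and 0.63.

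The values also depended on the scaling of the libraries. Median-of-ratios scaling, which divides each library by its median relative to the others over 1266 entries above 0 in all libraries, moved the median log2 ratio of the table from 1.23 to 0.043. Relative to that median, ACTN4 (-0.10), MYH9 (-0.44) and MARCKS (-1.58) were below the GFP level and BCAR1 (0.33) above it. Since the table consists of selected entries, most of them higher in PANX1 cells, its median is not known to be a neutral reference. Entries below the table median as deposited, such as ACTN4, MYH9 and MARCKS, come out below 0 or near it under this scaling whatever their own direction, so the signs restate their rank in the table.

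**Figure D5:**
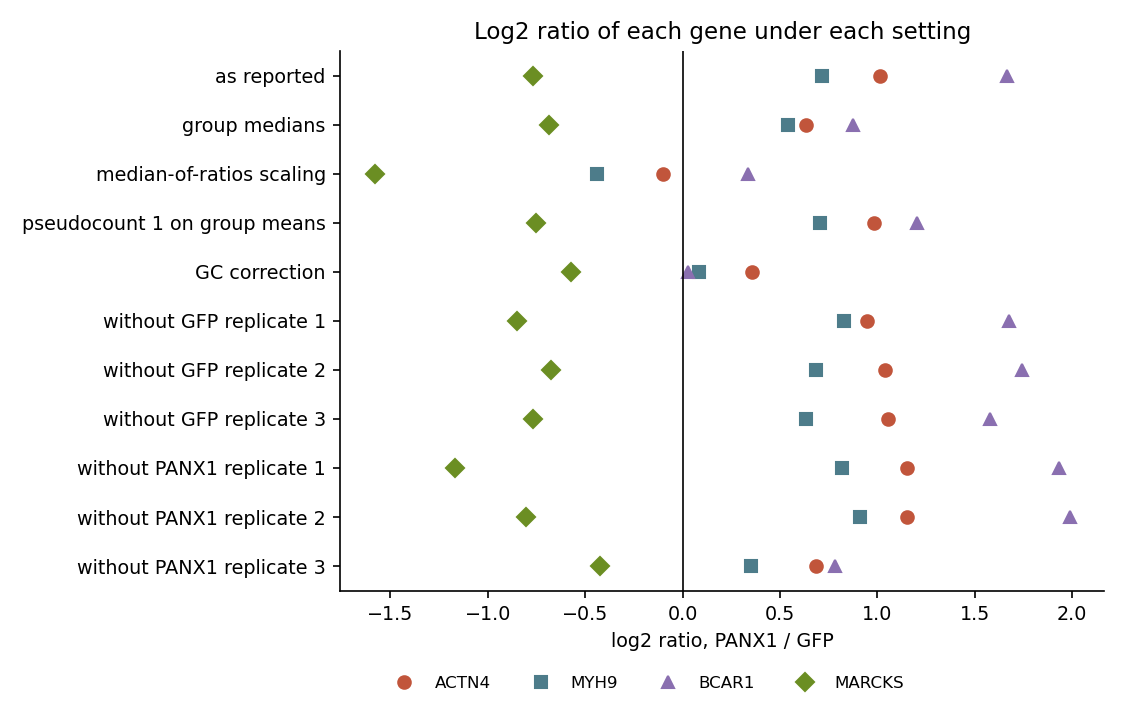
Log2 ratio of PANX1 over GFP (horizontal axis) of the 4 genes as reported and under each alternative (vertical axis), where the GC correction was made on log2(FPKM + 1). MARCKS stays below 0 throughout, between -1.58 and -0.42, and ACTN4 and MYH9 cross 0 under median-of-ratios scaling only.

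The entries whose profile over the 6 libraries was most like that of each gene were found by the root mean square difference of log2(FPKM + 1), centered on the GFP mean, among 1129 entries with a mean FPKM of at least 1. This measure compresses low values, so entries with alike profiles can differ in log2 ratio. For ACTN4 they were PSENEN, ZNF579 and FLAD1, with differences of 0.0451, 0.0456 and 0.0461. For BCAR1 they were HDAC10, TARBP2 and OSGIN1, with 0.0431, 0.0514 and 0.0555, although the log2 ratio of OSGIN1 was 2.75 against 1.66 for BCAR1. MYH9 had less close matches in PLCB3, NEURL4 and NAGPA, with 0.0975, 0.102 and 0.102, and the log2 ratio of NAGPA was 1.43 against 0.71 for MYH9. MARCKS stood farthest from its nearest entries, ANKRD36BP1, CASD1 and PTAR1, with 0.134, 0.160 and 0.167. CASD1, for example, had 11.5, 12.7 and 12.4 FPKM in GFP and 8.10, 7.07 and 2.91 in PANX1 cells, with PANX1 replicate 1 already below the GFP libraries by more than for MARCKS.

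The labelled cell type could be checked only in part, because an entry in the table depends on a difference between the groups and a missing entry does not show that a gene was silent. Of the marker lists, 5 of 20 markers of the skeletal muscle lineage or of alveolar rhabdomyosarcoma had an entry. DES, which encodes the muscle intermediate filament desmin, had 214, 277 and 354 FPKM in GFP and 384, 427 and 571 in PANX1 cells, and CDH15, FGFR4 and TNNI1 were also well above 1 FPKM in every library, while MYH8, a perinatal muscle myosin, was below 1 FPKM in all 6. MYH8 went the other way from the 4 others, with 0.388, 0.606 and 0.883 FPKM in GFP and 0.115, 0.260 and 0.0301 in PANX1 cells, and limma called it lower. MYOD1 and MYOG were not analysed here. The summed FPKM of the 5 markers was 311, 395 and 497 in GFP and 569, 624 and 1003 in PANX1 cells. Of markers of other cell types, THY1 was the 1 of 9 fibroblast genes with an entry, with 20.6, 18.4 and 22.2 FPKM in GFP and 30.6, 33.7 and 52.9 in PANX1 cells, and CD68 the 1 of 6 leukocyte genes, with 0.599, 0.416 and 1.08 and 1.37, 2.11 and 2.40 FPKM. The 7 epithelial and 5 endothelial genes listed had no entry, but the lists are short. KRT7, a keratin of simple epithelia, and TIE1, ROBO4, ENG and EGFL7, known from endothelial cells, are not on them, were picked after their values were seen, and had log2 ratios of 2.43, 1.21, 1.38, 1.44 and 2.82. Their part in the differences was not tested.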

How the data were processed

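RNA from 3 GFP and 3 PANX1 cultures was sequenced after poly(A) selection. Per the labels and the study's methods, the authors trimmed reads with cutadapt 1.7.1, mapped them on hg19 (TopHat2 2.0.13, Bowtie2 2.2.3) and ran Cufflinks 2.2.1 to obtain FPKM. The deposited FPKM are scaled for length and library size, and the library normalization within Cufflinks is not given in the sources used here. Cufflinks divides fragments between overlapping genes. The study's methods give read totals without replicate numbers; these were not used, and no counting error was estimated.

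Groups and replicate numbers came from the sample titles. Log2 ratios are of group mean FPKM without a pseudocount. Limma 3.58.1 in R 4.3.3 (lmFit, eBayes with a trend) was fitted to log2(FPKM + 1) over all 1273 entries without a block, with Benjamini-Hochberg adjustment and a threshold of 0.05. The fit was also run on simulated data, and no outcome of that run is given here. The rest was done in Python 3.11.15 (scipy 1.17.1, numpy 2.4.6, pandas 2.3.3), with matplotlib 3.10.9 for plots. Starts of loci had 1 added, as the table counts from 0. GC content came from GENCODE v44 lifted to the same build, matched by symbol for 1154 entries, with the slope taken relative to a GC content of 49.1%. The GC correction was made on log2(FPKM + 1), so values and counts after it also carry this pseudocount. They are differences of group means of log2 values, unlike the log2 ratios of group mean FPKM.

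The genes and lists were chosen with earlier results of these data known. Named are the 4 genes, the entries with the largest and smallest log2 ratio in each role list or all entries of a list with 4 or fewer, and the 3 most similar profiles, with exceptions stated, and 1 entry that the rule names is not reported here by name. The alternatives were other pseudocounts (0.1 and 0.01), a minimum mean FPKM of 1, group medians, median-of-ratios scaling, GC correction, eBayes without a trend, replicate blocks, and leaving out each library.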

Additional observations from a re-analysis of the deposited data

How the results depend on the processing

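Under median-of-ratios scaling the log2 ratio was -0.10 for ACTN4 and -0.44 for MYH9, both reversed, and 0.33 for BCAR1, and 16 of the 31 other entries were higher and 15 lower with a median of 0.031. After GC correction, made on log2(FPKM + 1), the values were 0.36 for ACTN4, 0.087 for MYH9 and 0.027 for BCAR1, and 23 of the 31 were higher and 8 lower with a median of 0.21. A pseudocount of 1 alone, on group means, gave 0.98 for ACTN4, 0.70 for MYH9 and 1.20 for BCAR1, with 29 of the 31 higher, 2 lower and a median of 1.04. The causes were not tested. MARCKS moved by less than the spread of its PANX1 replicates in all 10 alternatives. That spread was wide, with log2 ratios to the GFP mean of -0.19, -0.69 and -1.88 in PANX1 replicates 1, 2 and 3. The log2 ratio of MARCKS was -0.77 as deposited and -1.58 under median-of-ratios scaling, so this count does not show a stable size. With each library left out in turn the log2 ratio ran from 0.68 to 1.15 for ACTN4, from 0.35 to 0.91 for MYH9, from 0.78 to 1.99 for BCAR1 and from -1.17 to -0.42 for MARCKS, the median of the 31 ran from 0.73 to 1.48, and the calls ran from 0 to 25 higher and from 0 to 2 lower, against 11 and 0.

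Limma called 14 of the 31 higher with either smaller pseudocount, 10 of the 26 higher and 2 lower entries left by a minimum mean FPKM of 1, and 0 of the 31 without a trend in eBayes, under median-of-ratios scaling, after GC correction, or after GC correction with the replicate block. Over the whole table, where 426 entries were called higher and 9 lower, the calls ran from 8 to 994 higher and from 0 to 146 lower with 1 library left out, fewest higher without GFP replicate 1 and most without PANX1 replicate 3. They were 0 and 0 under median-of-ratios scaling, 9 and 0 after GC correction, and 63 and 6 after GC correction with the block. Calls lower were 22 and 20 with pseudocounts of 0.1 and 0.01 and 4 with a minimum mean FPKM of 1. The table median was 0.84 with group medians, 0.043 under median-of-ratios scaling and 0.18 after GC correction. Without a trend 770 entries were higher and 54 lower at an unadjusted p under 0.05 but 0 were called. With the replicate number of the titles as a block, 14 were called higher and 0 lower (581 and 33 over the table), and with a block by the culture numbers of the descriptions, 27 and 1 (1005 and 140), a fit in which GFP replicate 1 and PANX1 replicate 3 have no partner and drop out, so that the block and the loss of these libraries cannot be told apart. Across genes, the deviations of same-numbered libraries from the mean of their group correlated at 0.42, -0.36 and 0.14 for title numbers 1, 2 and 3. By culture numbers, GFP replicate 2 with PANX1 replicate 1 gave -0.0061 and GFP replicate 3 with PANX1 replicate 2 gave 0.053. With deviations taken from means of only 3 libraries, this check cannot settle whether either set of numbers pairs the samples. The study's methods call the PANX1 libraries matching replicates without saying what they share. Not every library correlated best with its own number. Counting error was not estimated here and was not separated from the spread between cultures.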
